A study of Mus musculus with 9 samples.

Results

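The mitochondrial genome of the mouse encodes 37 transcripts, and all 37 had a row among the 52183 genes of the FPKM table, found by a symbol that starts with mt-. They are 13 messenger RNAs, 2 ribosomal RNAs and 22 transfer RNAs. FPKM counts sequenced fragments per length of gene and per depth of library, so deposited levels of different genes share a scale. These levels need not give relative RNA amounts for genes with a near-identical copy elsewhere in the genome, which are named below. The same holds between mRNAs, rRNAs and tRNAs, as the capture of each class by the library kit was not tested. Of the 37 transcripts, 16 averaged 1 FPKM or more across all 9 libraries and were tested: 9 mRNAs, both rRNAs and 5 tRNAs.

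RNA came from endothelial cells, the cells that line the vessels of bone marrow, sorted from the long bones of mice. There were 3 libraries from young controls aged 3 months, 3 from aged controls aged 18 months and 3 from mice aged 18 months with the genotype label of a Thbs1 knockout. All mice received an antibody to the endothelial junction protein VE-cadherin by injection before they were killed, and all libraries were made with a full-length cDNA kit for low amounts of RNA. The labels name no strain, no sex and no targeted exon, and they do not state whether every library had its own mouse. The p-values then cover only variation among libraries, which may be technical. Values of single libraries are given in the order of their replicate numbers, with the group in brackets.

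Thbs1, which encodes thrombospondin-1 of the extracellular matrix, was higher in each library labelled knockout than in each control. It was at 4.55, 3.89 and 4.18 FPKM (young), 0.67, 0.82 and 1.17 (aged) and 25.63, 19.45 and 19.84 (labelled knockout). RNA of the whole gene cannot settle whether the label holds, because the targeted exon is not named. The depth recovered from the values was 22160000 to 30400000 fragments, and it was greater in each library labelled knockout than in each control. The 9 endothelial markers summed to 1202.8 to 1498.07 FPKM, and the pan-leukocyte gene Ptprc stayed between 0.03 and 0.13 FPKM. The summed endothelial markers were lower in every aged control (1202.8 to 1371.2 FPKM) than in every young control (1440.55 to 1498.07 FPKM). The 8 stromal and smooth muscle markers summed to 68.9 to 81.51, 37.97 to 48.83 and 27.48 to 39.36 FPKM in the young, aged and labelled knockout groups. B and plasma cell transcripts ran from 4.4 to 3013.5 FPKM and neutrophil transcripts from 5.6 to 271.8 FPKM. Erythroid transcripts ran from 45.01 to 184.25 FPKM and those of monocytes and macrophages from 21.14 to 71.69 FPKM. These lists overlapped between all groups, as did the megakaryocyte and the T and NK cell lists. No marker was at 0 in all libraries, and the part of these lists in the results on mitochondrial transcripts was not tested. In bulk RNA, fewer cells of a type and less RNA per cell cannot be told apart.

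Mitochondrial DNA is a small circle held in many copies per cell. Both strands are transcribed into long precursors, which are cut mostly at the tRNAs that lie between the genes, and the pieces then decay at different rates. The mRNAs encode core subunits of respiratory complexes I, III and IV and of the ATP synthase, while the rRNAs and tRNAs serve the ribosome inside the mitochondrion. Pieces of mitochondrial DNA have also entered the nuclear chromosomes over evolution. A sequenced fragment from a gene with a near-identical nuclear copy can be assigned to either or to neither.

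Such copies were found for 11 of the 37 genes, as 17 annotated nuclear transcripts with at least 90% identity over at least 100 bases. Of these 17, 16 had a row in the table and 6 reached 1 FPKM in any library. 7 of the copies form 1 block on the minus strand of chromosome 1 (GRCm38 chr1:24611535-24616197, 4663 bases), in the gene order of the mitochondrial genome. The block mirrors the stretch from 6390 to 11042 of the mitochondrial genome (4653 bases), which holds 11 transcripts whole and parts of mt-Co1 and mt-Nd4. mt-Co2 and Gm28661 were identical over 681 bases, mt-Atp6 and Gm10925 over 678, mt-Co3 and Gm28437 over 783, mt-Nd4l and Gm10222 over 294, and mt-Nd4 and Gm28439 over 876, which is 63.6% of mt-Nd4.

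The pairs of mt-Nd3 with Gm28438 and of mt-Co1 with Gm29216 differ at 1 base each, and these bases are shown because the division of fragments within the first pair changed between groups. The capital marks the base that differs. Positions count from 1 at the 5′ end of the mitochondrial gene, the base of the mitochondrial gene stands first, and the sequences are GENCODE M21 transcripts on GRCm38. The difference between mt-Nd3 (chrM:9459-9548, plus strand, first 90 bases) and Gm28438 (chr1:24613030-24613119, minus strand) is T3C. The rest of the 345 aligned bases are the same.
mt-Nd3: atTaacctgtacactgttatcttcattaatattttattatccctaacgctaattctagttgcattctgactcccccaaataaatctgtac
Gm28438: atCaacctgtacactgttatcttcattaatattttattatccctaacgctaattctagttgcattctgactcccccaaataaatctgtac
The difference between mt-Co1 (chrM:6390-6479, plus strand) and Gm29216 (chr1:24616099-24616188, minus strand) is A1066T, and Gm29216 covers 31.3% of mt-Co1 over 483 aligned bases.
mt-Co1: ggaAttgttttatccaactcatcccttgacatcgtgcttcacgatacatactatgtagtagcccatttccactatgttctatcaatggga
Gm29216: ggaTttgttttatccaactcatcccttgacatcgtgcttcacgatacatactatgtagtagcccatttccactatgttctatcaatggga
For contrast, mt-Co3 (chrM:8607-8666, plus strand, first 60 bases) and Gm28437 (chr1:24613912-24613971, minus strand) hold no base that tells them apart.
mt-Co3: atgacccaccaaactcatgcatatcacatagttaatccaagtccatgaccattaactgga
Gm28437: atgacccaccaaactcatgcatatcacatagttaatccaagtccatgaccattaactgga

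The mRNAs inside and outside the mirrored stretch differed in level. The 6 mRNAs that lie wholly inside the mirrored stretch, mt-Co2, mt-Atp8, mt-Atp6, mt-Co3, mt-Nd3 and mt-Nd4l, ranged from 0 to 6.1 FPKM over all libraries. The other 7 mRNAs ranged from 30.65 to 1349.12 FPKM. All 5 tRNAs inside the stretch (mt-Ts1, mt-Td, mt-Tk, mt-Tg and mt-Tr) were at 0 in every library, and so were 5 of the 17 tRNAs not inside it (mt-Tw, mt-Tn, mt-Ty, mt-Th and mt-Tt). How the authors treated fragments that match several places is not given in the sources used here, so RNA of these genes and RNA of their copies cannot be told apart in the deposited levels.

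**Figure D1:**
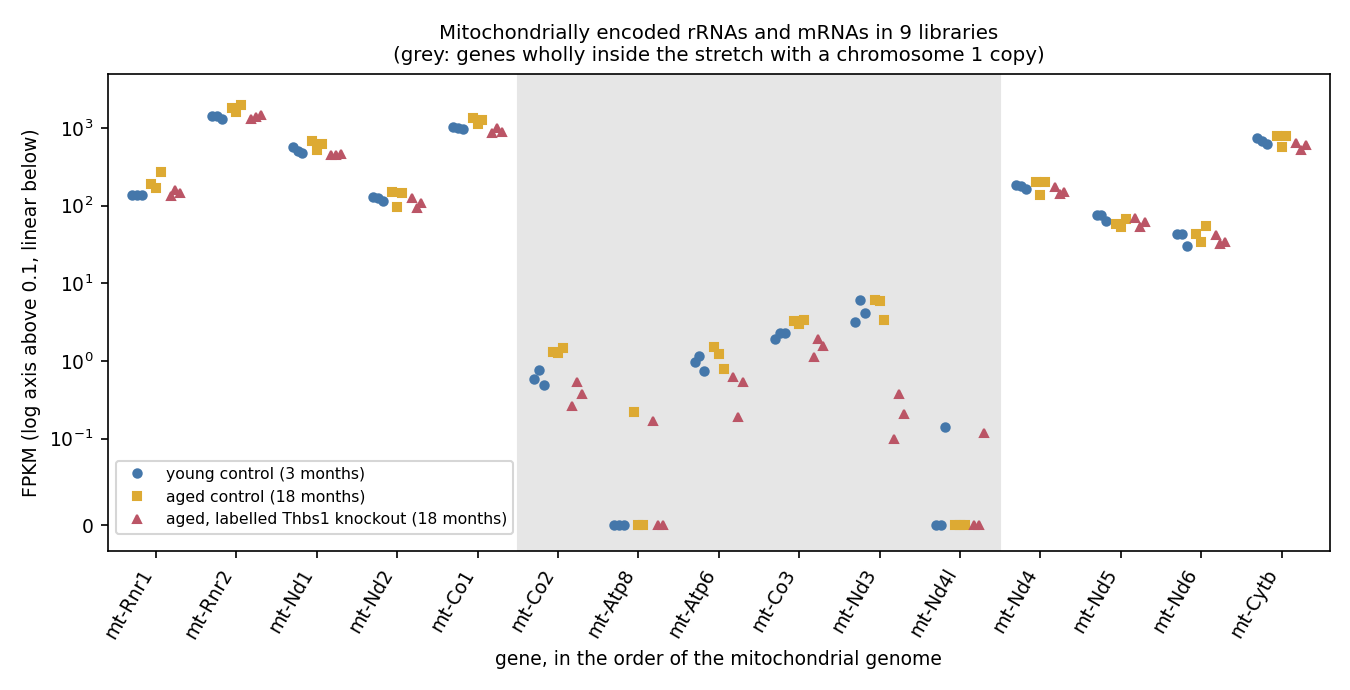
FPKM (log axis above 0.1) of the 13 mRNAs and 2 rRNAs in genome order, with 1 point per library and colours for the 3 groups. Genes wholly inside the stretch with a chromosome 1 copy (grey) sit between 0 and 6.1 FPKM, and mt-Nd3 is the gene whose group labelled knockout lies farthest below the others.

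**Figure D2:**
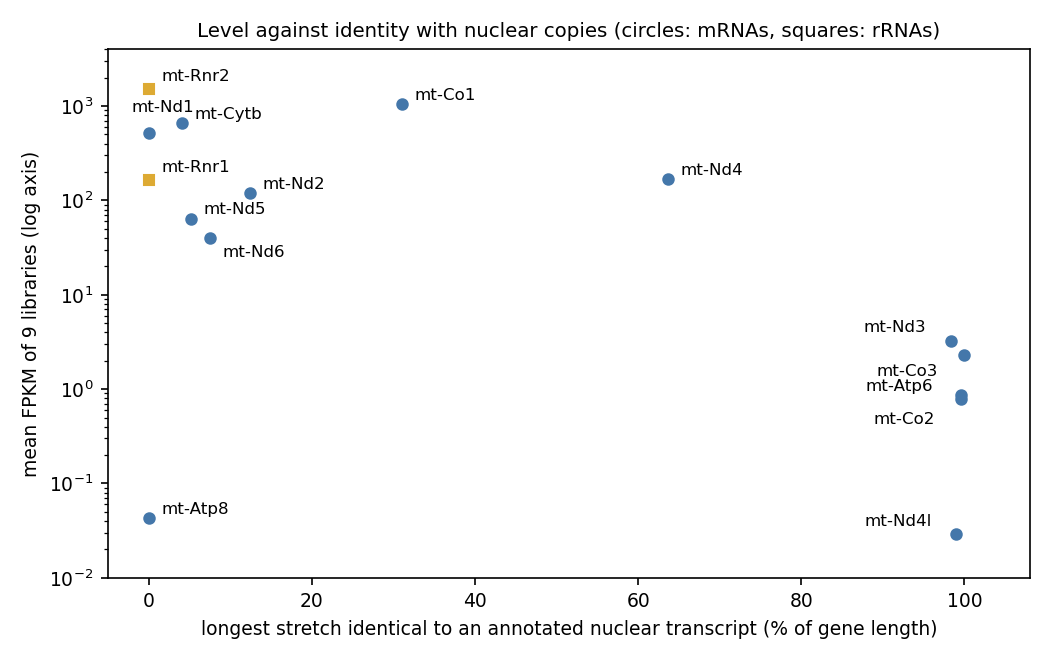
Mean FPKM of 9 libraries (log axis) against the longest stretch shared base for base with an annotated nuclear transcript, as percent of gene length, for the 13 mRNAs (circles) and 2 rRNAs (squares). The 5 genes at 98.3% or more are all below 6.1 FPKM, and mt-Atp8 is low although no annotated copy of it was found.

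Complex I takes electrons from NADH and has 7 subunits encoded by mitochondrial DNA. mt-Nd1 had the highest deposited level of them, at 562.06, 503.2 and 469.42 FPKM (young), 667.85, 515.94 and 627.53 (aged) and 446.17, 452.07 and 463.07 (labelled knockout). All 3 libraries labelled knockout lay below all 6 controls. The fitted difference from the aged controls was -0.40 (SE 0.12) on the log2(FPKM + 1) scale, which did not pass the threshold (limma adjusted p = 0.0775). No nuclear copy of mt-Nd1 was found, so this value is free of the copies searched here.

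mt-Nd4 stood at 162.12 to 182.8 FPKM (young), 138.53 to 203.83 (aged) and 139.47 to 171.15 (labelled knockout). Its copy Gm28439, identical to 63.6% of mt-Nd4, held 0 to 7 fragments per library. How much of the level of mt-Nd4 came from that shared stretch is not known. mt-Nd2 ranged from 92.29 to 147.61 FPKM and mt-Nd6, the only mRNA read from the other strand, from 30.65 to 55.33 FPKM. These 3 subunits overlapped between all groups.

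mt-Nd5 was at 76.69, 74.6 and 63.35 FPKM (young), 58.44, 52.65 and 66.43 (aged) and 69.63, 53.57 and 62.38 (labelled knockout). It was the one tested mRNA whose fitted difference between aged and young controls was below 0, at -0.27 (SE 0.13), without passing the threshold (limma adjusted p = 0.204). mt-Nd4l, wholly matched by Gm10222 apart from its last bases, had 1 fragment in each of 2 libraries and 0 in the other 7.

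mt-Nd3 showed the widest group difference of all mitochondrial genes tested. It stood at 3.14, 6.03 and 4.09 FPKM (young), 6.1, 5.89 and 3.39 (aged) and 0.1, 0.38 and 0.21 (labelled knockout), a mean 0.045 times that of the aged controls. Those libraries held 1, 4 and 2 fragments of it, and the controls 25 to 48. The fitted difference was -2.29 (SE 0.23) from the aged controls (limma adjusted p = 0.00123) and -2.11 (SE 0.23) from the young controls (limma adjusted p = 0.00493), lower in 3 of 3 libraries against either group.

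Its nuclear copy Gm28438 (ENSMUSG00000101939) moved the opposite way. It was at 0.38, 0.51 and 0.12 FPKM (young), 0.39, 0.51 and 0.47 (aged) and 11.69, 11.73 and 6.81 (labelled knockout). That is 22.1 times the mean of the aged controls, with a fitted difference of 2.89 (SE 0.20, limma adjusted p = 0.000148). Against the young controls it was 3.03 (SE 0.20, limma adjusted p = 0.000145).

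Within the pair, the share of fragments assigned to Gm28438 set the libraries labelled knockout apart from all controls, while young and aged controls overlapped. It was 10.7%, 7.69% and 2.86% in the young controls, with exact Clopper-Pearson 95% intervals from 0.07% at the lowest to 28.2% at the highest bound. In the aged controls it was 6.0%, 7.84% and 12.1%, with bounds from 1.25% to 28.2%. In the libraries labelled knockout it was 99.1%, 96.9% and 97.0%, with bounds from 89.5% to 99.98%. These intervals cover counting error only.

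Adding the copy to the gene turned the direction. Per length of mt-Nd3 the sum was 3.52, 6.54 and 4.21 FPKM (young), 6.49, 6.40 and 3.86 (aged) and 11.7, 12.01 and 6.96 (labelled knockout). Libraries with that label were then the higher ones, by 0.76 (SE 0.26) against the aged controls (limma adjusted p = 0.111) and by 0.96 (SE 0.26) against the young controls (limma adjusted p = 0.271), neither past the threshold. The mt-Nd3 row was therefore lower while the fragments assigned to the pair were not. Fragments assigned to neither row are missing from this sum, so the RNA of the pair as a whole is not known. Which base the assigned fragments carried at the position that tells the rows apart was not analysed here.

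**Figure D3:**
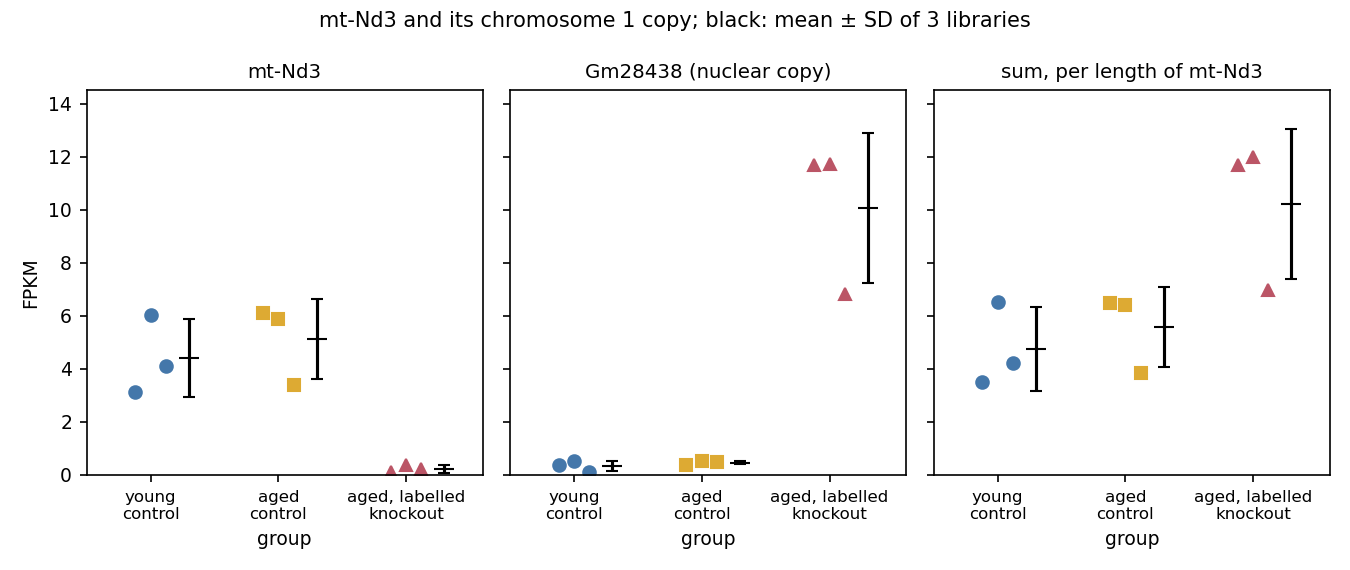
FPKM of mt-Nd3, of its chromosome 1 copy Gm28438 and of their sum per length of mt-Nd3, with 1 point per library and the mean ± SD of 3 libraries in black. The libraries labelled knockout are at 0.1 to 0.38 FPKM for mt-Nd3 and at 6.81 to 11.73 FPKM for Gm28438.

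Complex III passes electrons to cytochrome c, and cytochrome b is its one subunit encoded by mitochondrial DNA. mt-Cytb was at 750.38, 683.08 and 625.07 FPKM (young), 788.28, 568.95 and 786.36 (aged) and 637.96, 522.84 and 600.39 (labelled knockout). The groups overlapped. Its nuclear copy Gm11410 stayed at or below 0.04 FPKM.

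Complex IV, cytochrome c oxidase, reduces oxygen and takes its 3 core subunits from mitochondrial DNA. mt-Co1 had the highest deposited level of the mRNAs, at 1034.52, 999.57 and 962.02 FPKM (young), 1349.12, 1128.57 and 1245.36 (aged) and 859.16, 984.94 and 882.58 (labelled knockout). Every aged control was above every library of the other groups. The libraries labelled knockout fell by 0.45 (SE 0.10) from the aged controls (limma adjusted p = 0.0388), while the aged controls exceeded the young by 0.31 (SE 0.10) without passing the threshold (limma adjusted p = 0.0969). The call for mt-Co1 was lost in 7 of 9 fits that left out 1 library, at adjusted p up to 0.14 without labelled knockout library 1, and was kept only without aged control 2 or labelled knockout library 2. With Gm29216 and the other annotated copies of mt-Co1 added, the difference stayed at -0.45. Gm29216 received 0.09% to 0.15% of the fragments of the pair. That share counts fragments of all of mt-Co1, of which Gm29216 covers 31.3%. It does not show how fragments of the shared stretch were divided.

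mt-Co3 was at 1.9, 2.29 and 2.3 FPKM (young), 3.28, 3.01 and 3.37 (aged) and 1.14, 1.93 and 1.55 (labelled knockout). The aged controls did not overlap with either other group. The libraries labelled knockout fell by 0.74 (SE 0.14) from the aged controls (limma adjusted p = 0.0203), a call lost without labelled knockout library 1 (adjusted p = 0.0719) or library 3 (adjusted p = 0.0644). It was also lost by voom on recovered fragments (voom adjusted p = 0.053). The same held for limma in a fit of the compared groups alone (limma adjusted p = 0.0815) and without a filter (limma adjusted p = 0.115). Its identical copy Gm28437 held more fragments than the gene itself in each library, 65.03% to 81.3% of the pair. With the copy added, the difference from the aged controls was -0.56 (SE 0.12, limma adjusted p = 0.0353). That call of the sum was lost in 8 of 9 fits that left out 1 library, at adjusted p of 0.054 to 0.117, and kept only without labelled knockout library 2.

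mt-Co2 was below the level needed for testing, at 0.49 to 0.77 FPKM (young), 1.28 to 1.49 (aged) and 0.26 to 0.53 (labelled knockout), and rested on 5 to 25 fragments per library. Its copy Gm28661 held 51.2% to 76.5% of the fragments of the pair, and a further copy on chromosome 2, Gm13341 (95.9% identity), stood at 1.54 to 3.31 FPKM. Summed with its copies, it was at 4.22 to 4.49 FPKM (young), 5.67 to 5.94 (aged) and 2.40 to 3.90 (labelled knockout). On that sum the libraries labelled knockout fell by 0.73 (SE 0.13) from the aged controls (limma adjusted p = 0.0158), a call lost without labelled knockout library 3 (adjusted p = 0.0543).

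The ATP synthase takes mt-Atp6 and mt-Atp8 from mitochondrial DNA, parts of the membrane portion through which protons pass. mt-Atp6 was at 0.74 to 1.16, 0.78 to 1.52 and 0.19 to 0.63 FPKM in the young, aged and labelled knockout groups, and its identical copy Gm10925 at 2.16 to 2.39, 1.86 to 2.66 and 1.21 to 1.41 FPKM. Both rows were lower in every library labelled knockout than in every control. Their sum, which includes a further copy at 0 to 0.16 FPKM, was lower in the libraries labelled knockout. It differed by -0.64 (SE 0.16) from the aged controls, with a limma adjusted p of 0.0514. mt-Atp8, which overlaps mt-Atp6 on the mitochondrial genome, had 1 fragment in each of 2 libraries and 0 in the other 7.

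The rRNAs of the small and large ribosomal subunit had no nuclear copy by the rule used. mt-Rnr2 had the highest deposited level of the mitochondrial transcripts, at 1427.12, 1414.83 and 1302.82 FPKM (young), 1796.85, 1610.52 and 1984.77 (aged) and 1293.45, 1400.17 and 1446.65 (labelled knockout). mt-Rnr1 was at 137.12, 138.13 and 136.03 FPKM, then 188.08, 170.79 and 272.21, then 134.41, 160.96 and 143.75. For both rRNAs every aged control was above every other library.

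The differences of the rRNAs did not pass the threshold. Aged controls exceeded young controls by 0.38 (SE 0.11) for mt-Rnr2 (limma adjusted p = 0.0724) and by 0.58 (SE 0.16) for mt-Rnr1 (limma adjusted p = 0.0658). The libraries labelled knockout differed from the aged controls by -0.38 (SE 0.11, limma adjusted p = 0.0751) and -0.49 (SE 0.16, limma adjusted p = 0.097). With genes of at least 5 FPKM only, both rRNAs were called between aged and young controls. These calls lay just under the threshold (limma adjusted p = 0.0482 for mt-Rnr1 and 0.0493 for mt-Rnr2).

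The tRNAs had few fragments. 10 of the 22 had no fragment in any of the 9 libraries. A count of 0 leaves a 95% upper limit of 3 on the number of assigned fragments to be expected in a library at this depth. It sets no limit on RNA whose fragments were assigned elsewhere or to no row. Of the 22, 3 reached 10 FPKM in any library. mt-Tp, the tRNA for proline, was at 49.6, 45.7 and 44.37 FPKM (young), 55.23, 72.29 and 66.18 (aged) and 32.5, 76.57 and 54.8 (labelled knockout). Every aged control was above every young control, and the group labelled knockout spanned both. mt-Tq ranged from 1.51 to 16.68 FPKM and mt-Tc from 3.42 to 12.46 FPKM, with overlap between all groups. The other 19 reached at most 4.25 FPKM.

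All 5 tRNAs that were tested, mt-Tp, mt-Tq, mt-Tc, mt-Ta and mt-Te, belong to the 8 annotated on the minus strand. None of the 14 on the plus strand passed the filter, and the highest of these was at 1.9 FPKM. Where a minus strand tRNA lies opposite to an abundant plus strand precursor, fragments of both strands cannot be told apart without a strand setting, which is not given in the sources used here. At tRNA lengths of 59 to 75 bases, 1 fragment was worth 0.439 to 0.765 FPKM, so the tRNA values rest on few fragments.

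Between aged and young controls, 0 of the 16 tested mitochondrial transcripts were called, against a background of 3.99% of all 11796 genes tested, and 4 had an unadjusted p below 0.05 by limma (mt-Rnr1, mt-Rnr2, mt-Co1 and mt-Co3). By voom on recovered fragments, which called more of all genes than limma did, the count was also 0. Neither count of 0 is read as an absence of change. The 5 that did not overlap between the groups, those 4 and mt-Tp, were all higher in the aged controls, 31.2% of 16 against 13.9% of all genes tested. The median difference over the 16 was 0.15 on the log2 scale, and -0.05 over all genes.

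Between the libraries labelled knockout and the aged controls, 3 of 16 were called, all lower: mt-Nd3, mt-Co3 and mt-Co1. That is 18.8%, against 2.01% of all genes called lower. 6 of 16, the 3 called ones with mt-Nd1, mt-Rnr1 and mt-Rnr2, lay below all aged controls (37.5%, background 11.1%), and 14 of 16 differences were below 0 (background 49.6%). The median was -0.29, and 0.00 over all genes. With copies added, 3 of 18 tested were called, mt-Co1, mt-Co2 and mt-Co3, all lower. The background for calls in either direction was 4.79%. The sum for mt-Co2 includes Gm13341, which held 29 to 51 fragments per library against 5 to 25 for mt-Co2 itself. This comparison shares its aged controls with the one of aged and young controls.

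Between the libraries labelled knockout and the young controls, mt-Nd3 was the 1 gene of 16 that was called, against 0.127% of all genes called lower. mt-Nd1 and mt-Nd3 lay below all young controls (12.5% of 16, background 14%). Apart from mt-Nd3, the fitted differences of the tested mRNAs ran from -0.33 for mt-Co3 to -0.10 for mt-Nd6. mt-Rnr2 was at 0.00 (95% interval -0.24 to 0.24).

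**Figure D4:**
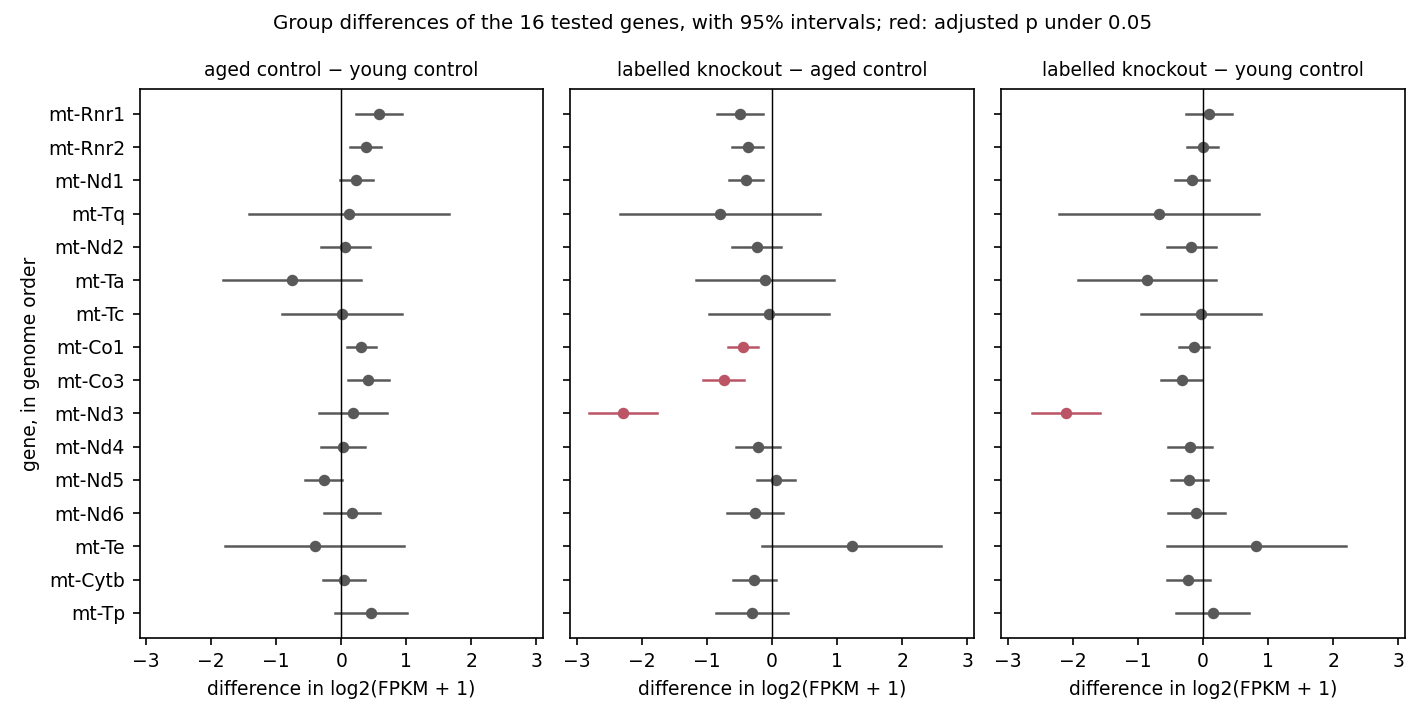
Fitted differences in log2(FPKM + 1) of the 16 tested transcripts in genome order for the 3 comparisons, with 95% intervals and called genes in red. mt-Nd3 lies apart at -2.29 and -2.11, and the other called genes, mt-Co1 and mt-Co3, appear in the comparison of labelled knockout with aged controls.

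As a share of the summed FPKM of a library, the 13 mRNAs made up 0.893%, 0.841% and 0.775% (young), 0.938%, 0.775% and 0.944% (aged) and 0.766%, 0.684% and 0.736% (labelled knockout). All 3 libraries labelled knockout lay below all 6 controls. The group means differed by -0.157 percentage points from the aged controls and by -0.107 from the young controls (exact permutation p = 0.1 each, two-sided, the smallest that 3 against 3 allows). Aged and young controls differed by 0.050 points (exact permutation p = 0.5).

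The rRNAs made up 0.458% to 0.502% (young), 0.542% to 0.679% (aged) and 0.465% to 0.509% (labelled knockout). The aged controls were above both other groups (exact permutation p = 0.1 each). All 37 transcripts together held 0.490% to 0.702% of the recovered fragments. 5 mRNAs, mt-Co1, mt-Cytb, mt-Nd1, mt-Nd4 and mt-Nd2, held 95.1% to 96.5% of the summed FPKM of the mitochondrial mRNA rows in each library. The mRNAs inside the mirrored stretch enter that sum at their deposited levels, so the true share of these 5 is not known.

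**Figure D5:**
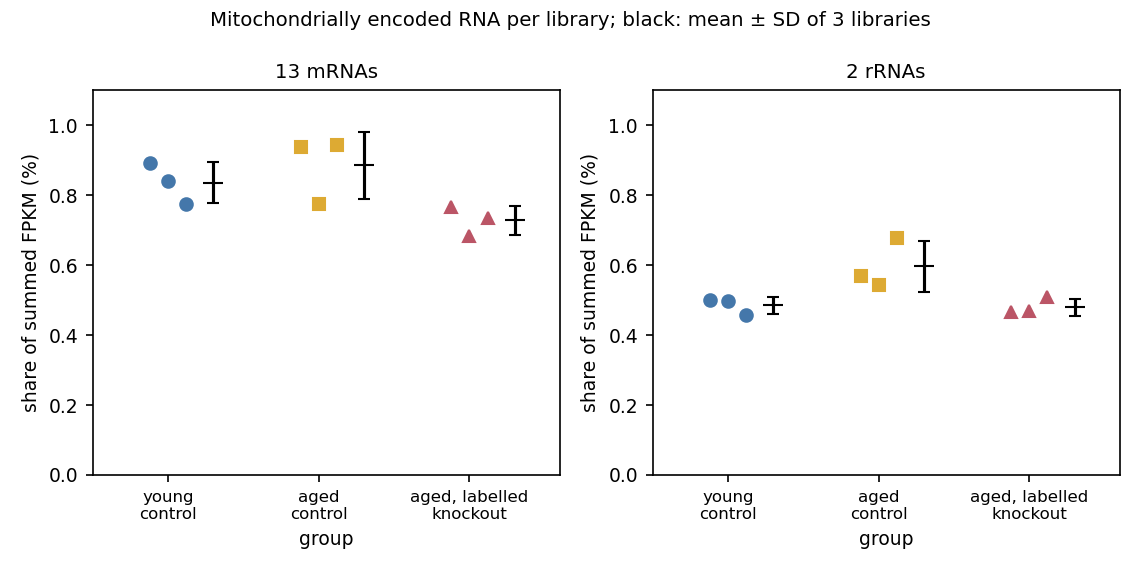
Share of the summed FPKM of each library, in percent, taken by the 13 mRNAs and by the 2 rRNAs, with 1 point per library and the mean ± SD of 3 libraries in black. The mRNA share of the libraries labelled knockout (0.684% to 0.766%) lies below the controls, and the rRNA share of the aged controls (0.542% to 0.679%) lies above the other groups.

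Over the 9 libraries, several of the transcripts varied together. For instance, mt-Nd2 and mt-Nd4 had a Pearson r of 0.98, mt-Nd4 and mt-Cytb of 0.97, mt-Rnr1 and mt-Rnr2 of 0.93 and mt-Co1 and mt-Nd1 of 0.93, while mt-Co1 and mt-Nd5 had -0.26. These values share libraries, depth and groups and are given as a description. Among 4654 nuclear genes of at least 10 FPKM, those most like the summed mitochondrial mRNA were 2210016F16Rik (r = 0.95), Gps1 (0.92), Epor (0.91), Axl (0.90) and Ppil1 (0.90), over the same 9 libraries.

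Nuclear genes run the expression of the mitochondrial genome. Over all genes tested, 1.2% were called higher and 2.8% lower in aged than in young controls, and 2.78% higher and 2.01% lower in the libraries labelled knockout than in aged controls. Counts of 1 or 2 called genes in a list are given with no reading against these shares. For transcription and replication of mitochondrial DNA 1 of 14 tested was called, Mgme1, an exonuclease of mitochondrial DNA maintenance, which fell by 0.64 (limma adjusted p = 0.0145) from the aged controls to the libraries labelled knockout. Of 29 for RNA processing and stability 1 was called, Pnpt1, the mitochondrial polynucleotide phosphorylase, lower by 0.62 in aged than in young controls (limma adjusted p = 0.0355). None of 14 translation factors was called by limma in any comparison, with 2 to 5 at an unadjusted p below 0.05 and 1 called by voom between aged and young controls. None of 19 aminoacyl-tRNA synthetase genes was called by limma or voom, with 0 to 4 at an unadjusted p below 0.05. In none of the 8 lists was a gene called between the libraries labelled knockout and the young controls by limma or voom. Per list, 0 to 3 genes were at an unadjusted p below 0.05. By limma, 0.127% of all genes tested were called lower in that comparison, so the 0 in these lists is given with no reading.

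Among 9 regulators of mitochondrial biogenesis, Sirt1, a deacetylase, and Pprc1, a coactivator related to PGC-1, fell by 0.59 and 0.55 in aged against young controls (limma adjusted p = 0.0363 for both) and were higher by 0.60 and 0.48 in the libraries labelled knockout than in the aged controls (limma adjusted p = 0.022 and 0.0398). Of 15 chaperone, protease and stress genes, Clpx was lower in aged than in young controls by 0.39 (limma adjusted p = 0.0435), and Ddit3 was higher by 0.69 in the libraries labelled knockout than in aged controls (limma adjusted p = 0.014).

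Of the 77 mitochondrial ribosomal protein genes, none was called between aged and young controls by limma or voom (18 at an unadjusted p below 0.05), and 2 were lower in the libraries labelled knockout than in aged controls: Mrpl44 by 0.50 and Mrpl16 by 0.50 (limma adjusted p = 0.0137 and 0.0375), near the 2.01% of all genes. Their median differences were 0.19 and -0.20. Of 81 nuclear genes of the respiratory chain and ATP synthase, 6 were higher in aged than in young controls, among them Ndufc1, Ndufs6, Cox7a2l and Ndufb10, against 1.2% of all genes. In the libraries labelled knockout 2 of the 81 were lower than in aged controls, Ndufc1 and Ndufb11, a share near the 2.01% of all genes. Their median differences were 0.27 and -0.20, beside 0.15 and -0.29 for the mitochondrially encoded transcripts. Of these genes named from the lists, Ddit3 kept its call in all 9 fits that left out 1 library, Mrpl44 lost it in 1, and Mgme1 and Sirt1 (labelled knockout against aged) in 2. Between aged and young controls, Sirt1, Pprc1, Pnpt1, Clpx, Ndufs6 and Ndufb10 lost theirs in 6 of 9 fits and Ndufc1 and Cox7a2l in 7. Between labelled knockout and aged, Ndufb11 lost its call in 7 of 9 fits and Mrpl16, Pprc1 and Ndufc1 in 8.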

How the data were processed

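The authors deposited FPKM values with 2 decimals in a table of 52183 genes, all of whose identifiers matched GENCODE M21. The submitters' processing notes list FastQC 0.11.5, STAR and edgeR as tools and GRCm38 and mm10 as builds. The sources used here do not give counting rules, strand, or how fragments with several matches were treated.

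Depth was recovered from whole multiples of 1 fragment in genes of 60 to 400 bases (tolerance 0.1). Whole values made up 99.4% to 99.7%. Values were tested as log2(FPKM + 1) with limma 3.58.1 in R 4.3.3, in 1 fit of 9 libraries with a trend, over the 11796 genes that averaged 1 FPKM or more, adjusted by Benjamini-Hochberg with a threshold of 0.05. limma-voom on recovered fragments was an alternative. Copies were sought with blastn (BLAST 2.17.0) among annotated GENCODE M21 transcripts, because no genome sequence was used. Unannotated copies were not sought.

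Nuclear genes of the respiratory chain were taken by symbols starting with Nduf, Uqcr, Cox4 to Cox8 or Atp5, assembly factors included and pseudogenes left out, and ribosomal ones by Mrp symbols. Named genes were every mitochondrial mRNA and rRNA, tRNAs reaching 10 FPKM, copies reaching 1 FPKM, up to 4 called genes per list and comparison, and the 5 genes most alike. The other tRNAs, Gm11410, Gm10222, Gm28439 and Ptprc were named outside that rule, after their values were seen. Members and lists were chosen with earlier results of these data known. The fit was tested on simulated data. Figures used Python 3.11.15 and matplotlib 3.10.9.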

Additional observations from a re-analysis of the deposited data

How the results depend on the processing

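The call of mt-Nd3 was kept in all 9 fits that left out 1 library, in both comparisons with the libraries labelled knockout, and with 7 other alternatives in each. Without a filter its adjusted p was 0.0546 and 0.0736, and with the copy added its difference turned to 0.76 and 0.96. The filter of at least 5 FPKM removes mt-Nd3 and mt-Co3 from the test.

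Between aged and young controls the count of called transcripts rose from 0 to 2 with a filter of at least 5 FPKM and was 0 in each fit that left out 1 library, also with copies added. Between the libraries labelled knockout and the aged controls it was 3, and 0 without a filter, 1 with a filter of at least 5 FPKM, 1 in a fit of the compared groups alone, and 1 to 4 with 1 library left out, 1 without labelled knockout library 1 or 3. With copies added it was 3, and 0 without a filter and 0 to 3 with 1 library left out, 0 without labelled knockout library 3 and 1 without any 1 young control, aged control 1 or labelled knockout library 1. Between the libraries labelled knockout and the young controls it was 1, and 0 without a filter, 0 with a filter of at least 5 FPKM, 0 with copies added, and 1 in each fit that left out 1 library. The cause of these shifts was not tested, apart from the genes that the filter removes. Between aged and young controls, the number of all genes called also changed with the setting. It was lower without a filter, without any 1 control or without labelled knockout library 3. It was higher without labelled knockout library 1 or 2. The counts of 0 in that comparison are therefore given with no reading.

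The replicate number as a block gave 0, 2 and 1 calls in the 3 comparisons, and 0, 1 and 0 with copies added. Same-numbered libraries had correlations of their deviations from -0.129 to 0.124 over 9 pairs, so the numbers were not taken as a pairing. The shares of mitochondrial mRNA kept their direction under each alternative, from 0.019 to 0.105, -0.212 to -0.128 and -0.138 to -0.079 points with 1 library left out. The share of Gm28438 differed by 87.7 to 90.7 points (labelled knockout against aged) and 88.5 to 92.4 points (against young). Between aged and young controls its difference ran from -0.55 to 3.38 points, at -0.55 without young control 3 and -0.17 without aged control 3. Alternatives for sums with copies and for nuclear genes were added after the data were seen. Transcripts inside the copied stretch rest on at most 65 fragments per library.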

Other observations

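Chosen after the values were seen, the ratio of mt-Co1 to mt-Nd5, both read from the same strand, was 13.5, 13.4 and 15.2 (young), 23.1, 21.4 and 18.7 (aged) and 12.3, 18.4 and 14.1 (labelled knockout). The aged controls lay above all other libraries, by a narrow margin over labelled knockout library 2. The ratio of summed rRNA to summed mRNA FPKM was 0.562 to 0.593 (young), 0.607 to 0.719 (aged) and 0.607 to 0.691 (labelled knockout), so both groups of older mice lay above the young. Ratios within a library do not depend on its depth.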
